A study of Mus musculus with 6 samples.

Results

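The large subunit of the cytosolic ribosome carries the protein genes described here, in whole blood of mice after food restriction (FR). Members were all probes on the array whose RefSeq accession maps to a symbol of the form Rpl with a number, or Rplp0, Rplp1 or Rplp2, leaving out clones and pseudogenes. This gave 51 genes with 76 probes, among 16535 named genes and 41174 probes on the array. Of these, 49 genes with 70 probes were bright enough to be tested. Rpl21 and Rpl39l were not tested because no probe of theirs was well above background.

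Male C57BL/6J mice, an inbred strain, were 9 weeks old and received either a normal diet (control) or 50% FR for 2 weeks, with 8 animals per diet. Blood was taken from the right ventricle, and RNA was pooled within each diet, so single animals were not measured. All 8 animals of a diet went into pool 1, numbers 1 to 4 into pool 2 and numbers 5 to 8 into pool 3. FR and control RNA of a pool were hybridised together on a pair of Agilent arrays that read both dyes, Cy5 and Cy3, with the dyes swapped between them (6 arrays in total), so each value is a log2 ratio of FR over control. Because pools 2 and 3 come from different animals, they served as the 2 replicates of every test (limma, two-sided, Benjamini-Hochberg adjusted p below 0.05, called "passed" below), and pool 1 repeats the same animals on another slide.

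Each large subunit is built from ribosomal RNA and one copy of nearly all of these proteins, so their genes are transcribed in a broadly balanced way. Their mRNAs begin with a terminal oligopyrimidine (TOP) tract, a run of C and T letters through which translation is switched on by mTORC1, a kinase complex that senses nutrients. Mature red cells hold no ribosomes, whereas reticulocytes, the young red cells, still hold ribosomes and ribosomal protein mRNA and lose both as they mature. White cells and platelets contribute to the same blood RNA.

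The mRNAs of the large subunit did not move as a block. Of the 49 genes tested, 9 rose, 18 fell and 22 did not pass, and the mean log2 ratios ran from -1.60 (Rpl22l1) to 1.40 (Rpl41). Among all 11508 features tested, 3.73% rose and 24.5% fell, 28.3% in either direction. The median of the members was -0.13, against 0.01 for all features. Their ratios spread more widely than those of all features, with an SD across genes of 0.68 against 0.47. Changes of at least 2-fold that passed were reached by 2 members upward and 6 downward, against 0.495% and 5.82% of all features. With 2 pools the fit gave genes of like brightness one common variance, so the p-values understate gene-to-gene differences in spread. The median SD between the 2 pools was 0.27 for the members and 0.13 for all features. The common variance, and with it the p-values, can therefore be too small for members. A stricter fit, which took the strength of the variance prior from all 3 pools, called 3 higher (Rpl35, Rpl41 and Rplp1) and 14 lower, against 1.53% and 15.5% of all features. A fit that did not pair FR and control by pool called 4 higher (these 3 and Rplp0) and 13 lower, against 0.991% and 8.46%. The split also depends on the centre, since centring each array on its median in place of loess moved the median of all features from 0.01 to -0.19 and gave 5 higher and 20 lower, against 1.57% and 35.6% of all features.

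**Figure D1:**
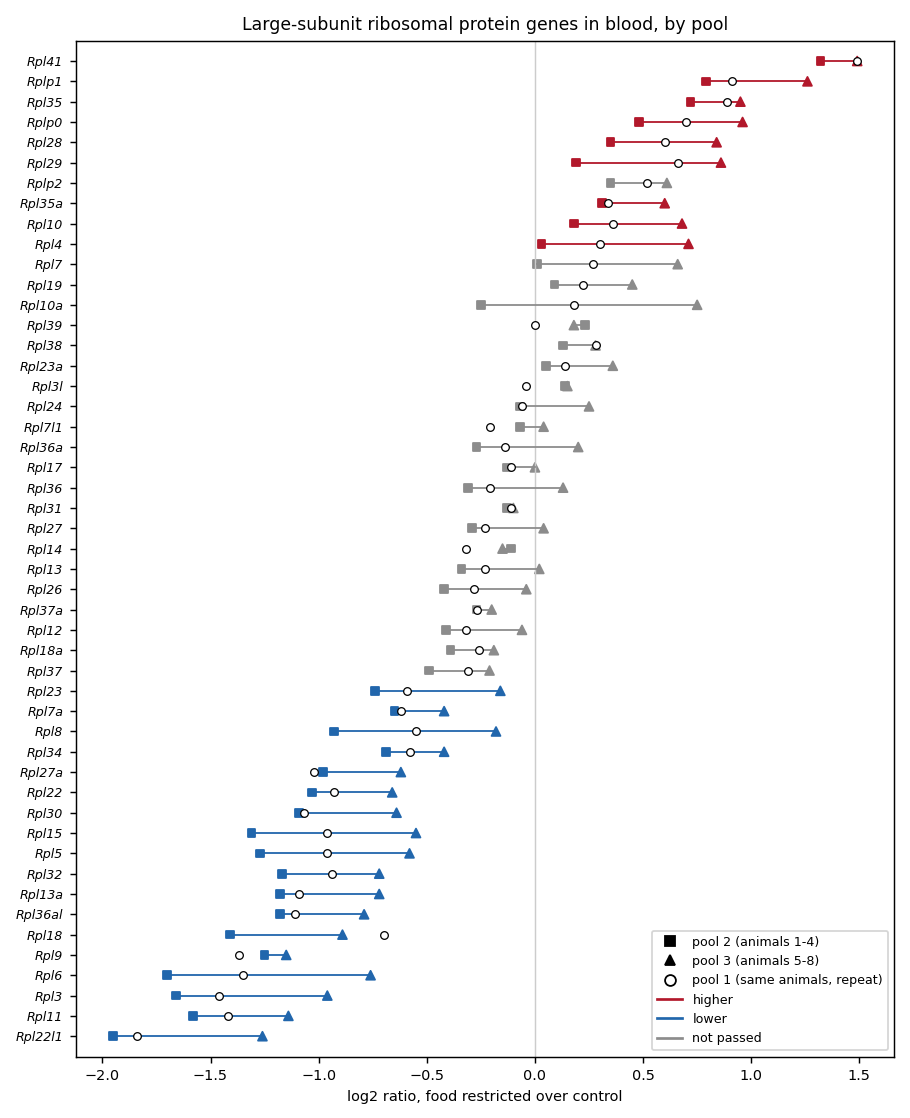
Log2 ratio of food restricted over control for each of the 49 tested genes, sorted by the mean of pools 2 and 3. Squares are pool 2, triangles pool 3 and open circles pool 1, and colour gives the call. The order runs from Rpl22l1 at -1.60 to Rpl41 at 1.40, and the pool 2 square lies left of the pool 3 triangle for 47 genes.

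Rpl41 rose most. It encodes the shortest ribosomal protein, a small basic peptide at the interface between the subunits. Its log2 ratios were 1.99 and 0.98 on the arrays of pool 1 with FR in Cy5 and in Cy3, 1.87 and 0.77 for pool 2, and 1.92 and 1.06 for pool 3. All 6 values were above 0, with the lower value of each pool on the array with FR in Cy3. The mean of pools 2 and 3 was 1.40 ± 0.12 (SD, n = 2 pools), or 2.65-fold (SE 0.22, adjusted p = 2.26e-09). With the arrays of FR in Cy3 alone it was 0.91 and did not pass (adjusted p = 0.0799).

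The stalk of the large subunit was described as a group of 4 genes. Rplp1 and Rplp2 form dimers that hang from Rplp0 and bring elongation factors to the ribosome, and Rpl12 sits at the base of the stalk. Rplp1 was at 0.86 and 0.97 in pool 1, 0.67 and 0.92 in pool 2, and 1.15 and 1.38 in pool 3 (FR in Cy5, then in Cy3), all above 0 and with pool 3 highest. Its mean was 1.03 ± 0.33, or 2.04-fold (SE 0.20, adjusted p = 3.3e-06). Rplp0 was at 0.78 and 0.62, 0.44 and 0.52, and 0.93 and 0.98 in the same order, a mean of 0.72 ± 0.34 (adjusted p = 0.00234, but 0.0658 in the stricter fit). Its other probe gave 0.84 ± 0.48. Rplp2 was above 0 on all 6 arrays, at 0.63 and 0.40, 0.24 and 0.47, and 0.45 and 0.77, yet its mean of 0.48 ± 0.18 did not pass (adjusted p = 0.0705). It did pass with median centring and with Agilent's processed signals, but not in the stricter fit (adjusted p = 0.0139, 0.0134 and 0.17). With all 3 pools as replicates it passed too (adjusted p = 0.00453), but pool 1 holds the same animals again and is no independent replicate. Rpl12 was below 0 on all 6, at -0.41 and -0.24, -0.45 and -0.36, and -0.03 and -0.10, and its mean of -0.24 ± 0.24 did not pass either (adjusted p = 0.341). Of the stalk genes, then, 2 of 4 rose and none fell, and Rplp2 and Rpl12 lay on opposite sides of 0. Among all features 3.73% rose and 24.5% fell.

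Rpl5 and Rpl11 both fell. Their proteins join 5S ribosomal RNA before entering the large subunit, and when assembly is disturbed this complex binds Mdm2 and so stabilises p53. Rpl11 was at -1.57 and -1.27 in pool 1, -1.68 and -1.48 in pool 2, and -1.23 and -1.05 in pool 3. Every array was below -1, and the mean was -1.36 ± 0.31, or 2.57-fold lower (SE 0.15, adjusted p = 4.54e-18). Rpl5 was at -0.97 and -0.96, -1.28 and -1.27, and -0.68 and -0.49, with the 2 arrays of pool 3 nearest to 0. Its mean was -0.93 ± 0.49 (adjusted p = 6.99e-09). Both genes also passed in the stricter fit (adjusted p = 0.00433 and 0.0226).

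Rpl22l1, a paralogue of Rpl22, fell most in the family. It was at -1.97 and -1.72 in pool 1, -1.99 and -1.90 in pool 2, and -1.13 and -1.38 in pool 3, a mean of -1.60 ± 0.49 or 3.03-fold lower (adjusted p = 1.71e-25). All arrays were below -1, with pool 3 nearer to 0 than the others. Rpl22 itself, a protein near the tunnel exit, was at -1.03 in pool 2 and -0.66 in pool 3, a mean of -0.84 ± 0.27 (adjusted p = 6.99e-08). Of the other paralogues, Rpl36al was at -0.98 ± 0.27 and passed (adjusted p = 1.83e-09), whereas Rpl3l, the muscle form of Rpl3, was at 0.15 ± 0.01 and Rpl7l1 at -0.02 ± 0.07, and neither passed. Both of the latter were dim, with log2 signals in FR of 7.08 for Rpl3l and 6.69 for Rpl7l1. In FR they were well above background on 3 and 2 of the 4 arrays, so their ratios do not show that they were unchanged. Of the 4 tested paralogues 2 fell and none rose, against 24.5% and 3.73% of all features.

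**Figure D2:**
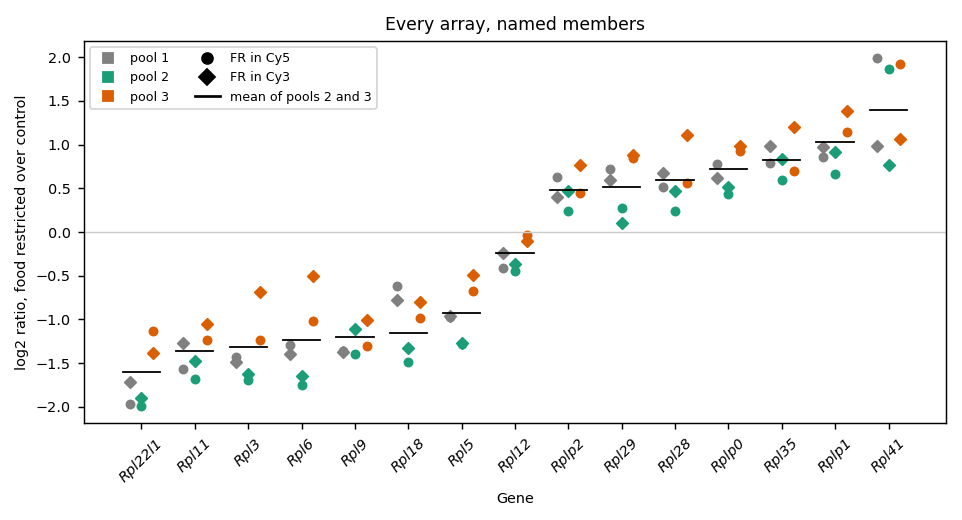
Log2 ratio of food restricted over control on each of the 6 arrays for 15 members: the 6 highest, the 6 lowest, and the stalk and 5S genes. Circles are arrays with FR in Cy5, diamonds with FR in Cy3, colours are pools and bars the mean of pools 2 and 3. The 6 lowest, Rpl5 and Rpl12 lie below 0 and the 6 highest and Rplp2 above 0 on every array, and Rpl41 shows the widest gap between dye orientations.

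Proteins around the catalytic centre and the tRNA sites went both ways. Rpl3, whose protein reaches toward the peptidyl transferase centre, was at -1.43 and -1.49 in pool 1, -1.69 and -1.62 in pool 2, and -1.24 and -0.69 in pool 3. The mean was -1.31 ± 0.49, or 2.48-fold lower (adjusted p = 1.83e-17), and all arrays were below 0. Rpl8 also fell, at -0.55 ± 0.53, but with -0.93 in pool 2 and -0.18 in pool 3 it lost its call in the stricter fit (adjusted p = 0.13). Rpl10, one of the last proteins to join the subunit, rose to 0.43 ± 0.35 (adjusted p = 0.027, and 0.17 in the stricter fit). Rpl10a, a protein of the mobile L1 stalk, had opposite signs in pools 2 and 3, at -0.25 and 0.75. Of these 5 genes 1 rose, 2 fell and 2 did not pass, while 3.73% of all features rose and 24.5% fell.

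Of 9 genes for the nascent peptide tunnel and its exit, 2 rose, 1 fell and 6 did not pass. Among all features 3.73% rose and 24.5% fell. Rpl35, at the exit, was at 0.79 and 0.99 in pool 1, 0.59 and 0.84 in pool 2, and 0.70 and 1.20 in pool 3, with the higher value of each pool on the array with FR in Cy3. Its mean of 0.83 ± 0.17 was a 1.78-fold rise (adjusted p = 8.8e-06). Rpl4, which lines the tunnel, was at 0.37 ± 0.48 and passed (adjusted p = 0.0458, and 0.28 in the stricter fit), with 0.03 in pool 2 and 0.71 in pool 3. At the subunit interface, beside Rpl41, Rpl30 fell to -0.86 ± 0.32 (adjusted p = 4.08e-08), Rpl23 fell to -0.45 ± 0.41 (adjusted p = 0.0153, and 0.166 in the stricter fit) and Rpl24 was at 0.09 ± 0.23.

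Of the 21 other tested members, 3 rose and 9 fell, against 3.73% and 24.5% of all features. Rpl6 was at -1.29 and -1.40 in pool 1, -1.75 and -1.65 in pool 2, and -1.02 and -0.50 in pool 3, so that the pools did not overlap and pool 3 was nearest to 0. Its mean was -1.23 ± 0.66, or 2.34-fold lower (adjusted p = 8.13e-16). Rpl9 differed little between arrays, at -1.36 and -1.37, -1.40 and -1.11, and -1.30 and -1.01, with a mean of -1.20 ± 0.07 (adjusted p = 2.14e-14). Rpl18 was at -0.62 and -0.78 in pool 1, but at -1.49 and -1.33 in pool 2 and -0.98 and -0.80 in pool 3, so that the repeat gave a smaller decrease than either pool. Its mean over pools 2 and 3 was -1.15 ± 0.37 (adjusted p = 9.85e-14). Rpl13a, Rpl32, Rpl15 and Rpl27a were between -0.95 and -0.80, and Rpl34 and Rpl7a, at -0.56 and -0.54, lost their calls in the stricter fit (adjusted p = 0.0554 and 0.0615). Rpl27a, well above background in FR on 3 of the 4 arrays, was at -1.73 with Agilent's processed signals.

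Rpl28 was the highest of these 21, at 0.51 and 0.68 in pool 1, 0.24 and 0.47 in pool 2, and 0.56 and 1.11 in pool 3. Its mean was 0.59 ± 0.34 (adjusted p = 0.000679). Rpl29 was at 0.72 and 0.59, 0.27 and 0.10, and 0.85 and 0.88, with the arrays of pool 2 lowest, and its mean was 0.52 ± 0.48 (adjusted p = 0.00167). Both were above 0 on every array. Both lost their calls in the stricter fit (adjusted p = 0.062 and 0.12) and with median centring, and Rpl35a at 0.46 ± 0.21 (adjusted p = 0.0143, and 0.101 in the stricter fit) was the third to rise. The 22 members that did not pass lay between -0.35 (Rpl37) and 0.48 (Rplp2).

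Large-subunit genes that are mutated in Diamond-Blackfan anaemia, an inherited failure of red cell production, were on both sides. Of 9 tested, Rpl11, Rpl18, Rpl5 and Rpl15 fell, Rpl35 and Rpl35a rose, and Rpl26, Rpl27 and Rpl31 did not pass, at -0.23, -0.12 and -0.11. Rpl31 was dim, well above background in FR on 3 of the 4 arrays. It was at -0.41 with Agilent's processed signals, and with median centring it was at -0.34 and passed as lower. Rpl15 was at -0.93 ± 0.54. Among all features 3.73% rose and 24.5% fell.

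Probes of the same gene were compared because ribosomal protein genes have many processed pseudogenes and close paralogues, and the match of a probe to such copies was not tested. RefSeq names 24 pseudogenes for Rpl31, 14 for Rpl7a and 13 for Rpl23a, and none for Rpl41 or Rpl11. In a fit on all 13268 probes, in which 3.99% rose and 25.5% fell, 16 members had more than 1 probe. For 8 of them all probes passed in 1 direction, and in 6 of these every probe was well above background in both diets on all 4 arrays. The exceptions were Rpl22 and Rpl23, each with a probe that was tested through its control signal. No gene had probes called in opposite directions. The 4 probes of Rpl29 lay between 0.52 and 0.65 and all rose. The 3 probes of Rpl7a lay between -0.54 and -0.40 and all fell, and the 2 probes of Rpl6 were at -1.23 and -1.06. Rpl36a, a protein of the E site, had the widest gap between probes. One of its 3 probes was at -0.69 ± 0.51 and fell, whereas the others were at -0.04 ± 0.33 and 0.07 ± 0.35 and did not pass, although all carry the same accession. The probe that stands for Rpl36a is the one at -0.04. Calls were also mixed for Rpl7, with 1 of 3 probes called higher, at 0.51 ± 0.49. Its other probes, at 0.40 ± 0.52 and 0.33 ± 0.46, did not pass, and the one at 0.33 stands for the gene. For Rpl22 the brighter probe was at -0.84, and the other was not well above background in FR on any of the 4 arrays, so its ratio gives only a bound.

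**Figure D3:**
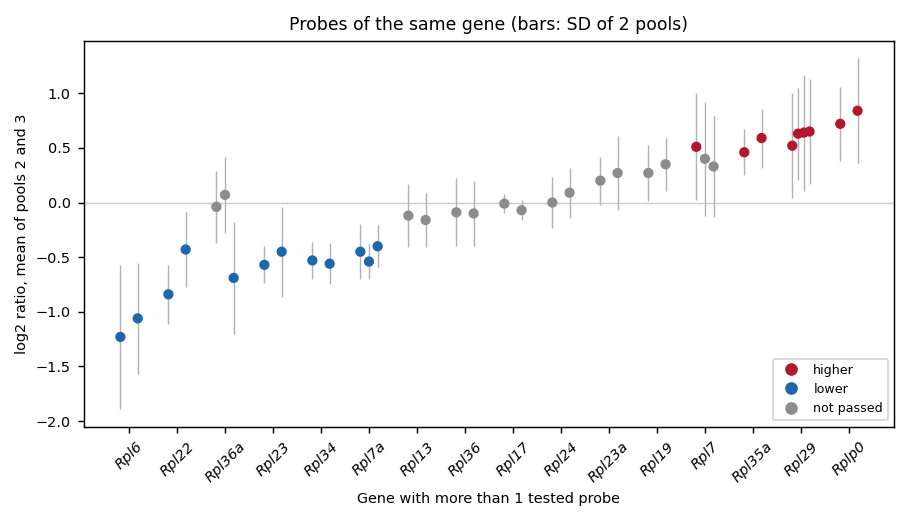
Mean log2 ratio of pools 2 and 3 for each tested probe of the 16 genes with more than 1, with bars for the SD of the 2 pools and colour for the call of the probe. Probes of a gene lie within 0.18 of each other except for Rpl36a, with a gap of 0.76, and Rpl22, whose upper point is not well above background in FR and gives only a bound.

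The order of the genes was shared between pools 2 and 3, while their centre was not. These pools differ in animals and in arrays, and which of these moved the centre was not tested. Across the 49 members the ratios of pool 2 and pool 3 had a Pearson r of 0.942 (Spearman 0.937), against 0.853 over all features, as a description across genes measured on 1 slide. In 42 of 49 the sign was the same in both pools. Yet pool 2 was lower than pool 3 in 47 of 49 members, by a median of 0.38, whereas 53.9% of all features were lower in pool 2, by a median of 0.03. The small-subunit genes did the same, with 32 of 32 lower in pool 2 and a median gap of 0.48. In 39 of 49 members the highest of the 4 array ratios was on the array of pool 3 with FR in Cy3, which is also the array with the fewest FR spots well above background (20.4%). This was so for 34.5% of all features. Without that array 7 members rose and 19 fell.

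**Figure D4:**
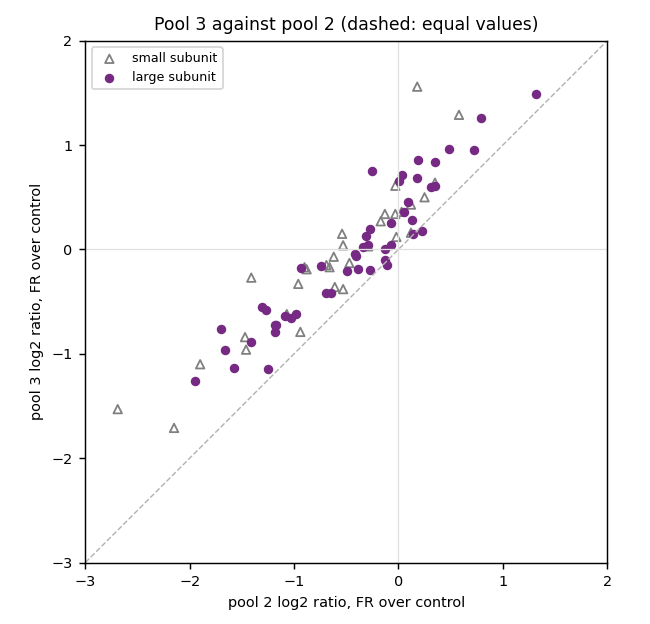
Log2 ratio in pool 3 against pool 2 for the 49 large-subunit genes (filled circles) and 32 small-subunit genes (open triangles). All but 2 of the large-subunit genes and all 32 small-subunit genes lie above the dashed line of equal values.

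Windows around the annotated gene starts are shown because a pyrimidine run at the start defines the TOP class. They are given for the 9 of the 6 highest and 6 lowest members that had a single entry. Members with no entry or with several are not shown. The windows are RefSeq sequences of build GRCm38.p6 on the transcript strand, from 40 bases before the start to 25 bases from the start on. The longest run of C and T letters anywhere in the window is in capitals, so it need not lie at the start. The members that rose are Rpl41 from chr10:128549144-128549208 (minus), Rpl35 from chr2:39005107-39005171 (minus), Rplp0 from chr5:115559427-115559491 (plus) and Rpl28 from chr7:4792925-4792989 (plus), with the strand in brackets. The members that fell are Rpl22l1 from chr3:28805468-28805532 (plus), Rpl11 from chr4:136053369-136053433 (minus), Rpl6 from chr5:121204461-121204525 (plus), Rpl9 from chr5:65391407-65391471 (minus) and Rpl18 from chr7:45718031-45718095 (plus).
Rpl41: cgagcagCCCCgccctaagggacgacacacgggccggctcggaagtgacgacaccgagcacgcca
Rpl35: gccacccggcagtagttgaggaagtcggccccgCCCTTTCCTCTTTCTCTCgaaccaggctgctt
Rplp0: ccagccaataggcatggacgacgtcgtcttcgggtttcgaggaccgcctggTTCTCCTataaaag
Rpl28: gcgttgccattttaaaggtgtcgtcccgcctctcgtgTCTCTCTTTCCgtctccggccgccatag
Rpl22l1: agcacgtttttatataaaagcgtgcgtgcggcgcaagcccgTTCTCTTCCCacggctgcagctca
Rpl11: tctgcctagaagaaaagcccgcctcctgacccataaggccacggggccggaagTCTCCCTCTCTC
Rpl6: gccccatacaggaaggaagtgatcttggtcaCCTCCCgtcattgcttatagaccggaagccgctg
Rpl9: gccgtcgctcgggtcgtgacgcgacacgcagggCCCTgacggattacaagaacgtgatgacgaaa
Rpl18: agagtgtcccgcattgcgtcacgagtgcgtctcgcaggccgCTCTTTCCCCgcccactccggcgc

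Longest runs were long and short on both sides. Among the genes that rose they had 18 bases in Rpl35, 11 in Rpl28, 7 in Rplp0 and 4 in Rpl41. Among the genes that fell they had 10 in Rpl22l1 and in Rpl18, 6 in Rpl6 and 4 in Rpl9, and in Rpl11 at least 12, since the run began at base 14 of the annotated transcript and reached the end of the window. The runs of Rpl41, Rpl6 and Rpl9 began at bases -33, -9 and -7 from the start and ended before it. They are therefore not TOP tracts of the annotated transcripts. That of Rplp0 began at base 12. The starts used in blood were not mapped here. Of the 51 members, 39 had an entry, with 46 windows. Runs were counted anywhere from 40 bases before the start to 25 bases from the start on, so they need not be TOP tracts. A run of at least 8 pyrimidines on the transcript strand stood in 26 of the 46 (56.5%), against 25.6% of all 32851 windows. It stood in 5 of 9 windows of genes that rose, 11 of 16 of genes that fell and 9 of 20 of genes that did not pass. The letters CTTTCC, which can lie within such a run, were found on the transcript strand of the whole window (250 bases before to 50 after the start) in 47.8% of member windows and 14.1% of all windows, and on either strand in 56.5% and 26.6%. The letters CCGGAAG, the core bound by ETS factors, were found on either strand in 32.6% of member windows and 8.86% of all windows. These matches are descriptions of letters and not of binding.

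Genes that act with the large subunit were read in the same fit. There, 3.73% of all features rose and 24.5% fell (1.53% and 15.5% in the stricter fit). Of 32 small-subunit genes 3 rose and 15 fell (median -0.33; 1 and 7 in the stricter fit), led by Rps18 at -2.11 ± 0.82 and Rps27 at -1.93 ± 0.31 on the lower side and by Rps2 at 0.93 ± 0.50 and Rpsa at 0.87 ± 0.98 on the higher side. Of 18 other TOP mRNA genes 2 rose and 10 fell (median -0.59; none and 8 in the stricter fit). Npm1, a nucleolar chaperone of ribosome assembly, was at -2.35 ± 0.52 and the elongation factor subunit Eef1g at -2.01 ± 0.37, whereas Tpt1 was at 0.65 ± 0.17. Tpt1, Rps2 and Rpsa were each higher in pool 3 than in pool 2, as were Rplp1 and Rpl41. The same held for Npm1, Eef1g, Rps18 and Rps27, which fell.

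Assembly and control genes fell or did not pass. Of 19 tested factors that assemble the large subunit, 11 fell and none rose (median -0.34; 4 fell in the stricter fit), with the helicase Ddx54 at -1.58 ± 0.46 and the rRNA methyltransferase Nop2 at -0.77 ± 0.36, and 22 further listed factors on the array were too dim to be tested. In the fit without pairing by pool 2 of the 19 fell. Of 14 genes for rRNA synthesis and modification, 9 fell and none rose (median -0.41; 5 fell without pairing), with nucleolin (Ncl) at -1.32 ± 0.38 and fibrillarin (Fbl) at -1.27 ± 0.30. Of 14 genes of mTORC1 and MYC control, 6 fell and none rose (median -0.24; 3 fell without pairing), with the translation inhibitor Eif4ebp1 at -1.63 ± 0.08 and the helicase Eif4a1 at -0.98 ± 0.46. Mtor, Rptor, Mlst8, Tsc1, Rps6kb1 and Mxd4 were too dim to be tested. This list holds activators and inhibitors, so its count of falls gives no direction for the pathway. In these 3 lists limma called 0 genes higher, also at an unadjusted p below 0.05, in the stricter fit and without pairing, but with 3.73% of all features higher few such calls could be made in lists of this size. The share of all features that fell was 24.5%, with 15.5% in the stricter fit and 8.46% without pairing. A gene could enter the test through its control signal alone, and such a gene could hardly be called higher. How many genes of these lists entered in that way is not given here. Of 6 genes of the p53 arm, Trp53 fell to -0.66 ± 0.32 and Ccng1 rose to 0.55 ± 0.39. Ccng1 lost its call in the stricter fit, and both lost theirs without pairing by pool.

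**Figure D5:**
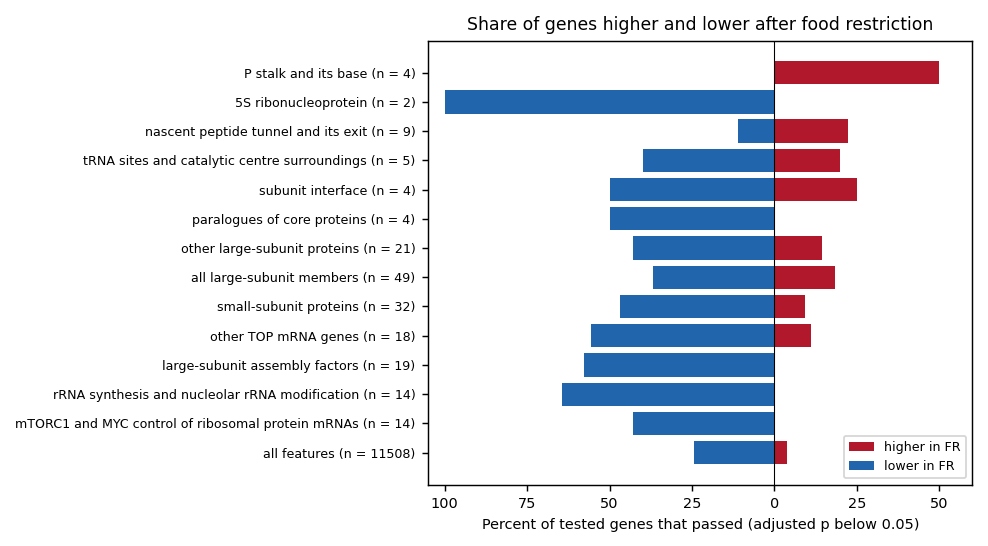
Percent of tested genes that rose (right, red) or fell (left, blue) for the groups of large-subunit genes, related lists and all features, with the number tested beside each name. The 49 members show 9 higher and 18 lower, and the lists for assembly, rRNA synthesis and mTORC1 and MYC control show no gene higher.

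Markers of blood cells moved in the same pools, and in bulk blood fewer cells of a type and less RNA per cell cannot be told apart. Beside the counts below, 3.73% of all features rose and 24.5% fell. B cell markers fell in 6 of 8 tested genes (median -1.66), and their summed signal (arbitrary scanner units, range over 4 arrays) was 9090 to 14600 in control and 1870 to 2350 in FR, with Pax5 and Blk not well above background. Monocyte markers fell in 6 of 7 (median -1.10, 28800 to 51200 in control and 3980 to 5240 in FR). Platelet markers fell in 8 of 10 (median -1.07, 91000 to 108000 and 41200 to 44600), and T cell markers in 3 of 8 (median -0.20, 4180 to 4600 and 3010 to 3190, with Cd4 too dim). Neutrophil markers fell in 3 and rose in 1 of 7 (none in the stricter fit; median -0.22, 10500 to 23300 and 8840 to 10400, with Camp, Mmp8 and Ngp too dim). Reticulocyte and erythroid markers rose in 2 and fell in 1 of 7, and their median went from -0.14 (pool 2) to 0.28 (pool 3). Their sums overlapped, at 330000 to 541000 in control and 353000 to 599000 in FR, and Klf1 was too dim. The summed signal of the large-subunit genes was 466000 to 523000 in control and 585000 to 720000 in FR, a sum in which the brightest probes weigh most: across the 49 genes the log2 ratio had a Pearson r of 0.44 with log2 spot signal, as a description across probes of the same arrays. The part of cell composition in the large-subunit ratios was not tested.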

How the data were processed

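Agilent whole-genome two-colour arrays of pooled blood RNA were read, per the submitters' processing notes, with Feature Extraction 11.0.1.1 (Agilent). The authors' deposited scanner files hold linear intensity values, and the deposited series table holds log10 ratios of red over green processed signal, neither centred nor turned, which served as an alternative. Median signals were corrected with normexp (offset 50), normalized by loess within arrays with control spots at weight 0, turned to FR over control by the labelled dyes, and averaged per probe and pool. Spots with an outlier mark were left out, and no member probe lost its value on any array by this. No probe spot was saturated. Probes were kept where either diet exceeded background clearly on each of the 4 arrays of pools 2 and 3. The brightest probe stood for its gene. Accessions named 23374 probes through RefSeq GRCm38.p6, which served for names and gene-start windows. The fit was limma 3.58.1 (R 4.3.3, eBayes with trend on brightness) on pools 2 and 3 against 0, over 11508 features, and it was tested on simulated data. FR and control of a pool share an array, not animals. Between 20.4% and 55.6% of spots were well above background in FR and between 37.2% and 62.1% in control. Members and lists were chosen with earlier results of these data known. Values in every array are given for the 6 highest and 6 lowest members that passed with 1 sign in pools 2 and 3, and for stalk and 5S genes. Members whose probes were called in opposite directions were to be added, and there were none. Related lists show their ends. Alternatives changed normalization, background, filter, variance model, pools, dyes and probe choice. Leaving out 1 array of pool 3 was added after seeing the data. Some genes of the related lists are not reported here by name.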

Additional observations from a re-analysis of the deposited data

How the results depend on the processing

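In 17 alternatives all 9 members that rose stayed above 0 and all 18 that fell stayed below 0, where they were tested. Alternatives that changed only the variance model or the pairing keep each ratio, so they could not change a sign. Those that changed only the filter also left the ratios of the 6 highest and 6 lowest members as they were. The number that rose was 9 and became 5 with median centring, 5 with FR in Cy3 alone, 3 in the stricter fit and 4 with no replicate block, that is, with FR and control of a pool treated as unpaired. Without the replicate block 13 fell, and 3 higher and 13 lower genes were shared by the main result, that fit and the stricter fit, whose variance prior came from 3 pools. With pool 1 in the place of pool 2 or of pool 3, which shares animals, 10 and 10 rose, 16 and 28 fell, and the median was -0.10 and -0.26. The median of -0.13 became -0.31 with median centring and -0.35 with the series table, which gave 6 higher and 21 lower. The causes were not tested. The number of pools limits the precision, and 5 of the 49 probes were not well above background in FR on every array.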
